A study of Mus musculus with 2 samples.

Results

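Fibrillar collagens are the chains that build the banded fibrils of connective tissue, and 7 of the 44291 genes in the deposited tables were taken here by their symbols: Col1a1, Col1a2, Col3a1, Col5a1, Col5a2, Col5a3 and Col11a1. All 7 were found, each as 1 entry, and none was lost to the filter on low values, which asked for 1 FPKM on average (FPKM is reads per kilobase of exon, scaled to the depth of the library). The data were RNA-seq profiles of primary wild-type mouse fibro-adipogenic progenitors (FAPs), the stromal cells of skeletal muscle that make matrix and can become adipocytes. One culture received platelet-rich plasma (PRP) and the other vehicle, and both were then kept in serum-containing adipogenic medium with IBMX, dexamethasone and insulin. Each group held 1 library, which made 2 libraries in all. The labels give neither the age of the animals nor the time of induction, and do not say whether cells of several animals were pooled. The treatment is PRP in the labels but exosomes from the PRP of young human donors in the study's own text. The groups are therefore named here as labelled, PRP and control.

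A fibrillar collagen is made as a procollagen of 3 chains wound into a triple helix. Type I is a heterotrimer of α1(I) and α2(I) chains and is the main load-bearing collagen of muscle connective tissue, tendon, skin and bone. Type III is a homotrimer of α1(III) chains that co-assembles with type I in extensible tissues. Types V and XI sit inside the fibril, start its assembly and limit its width. The α1(V), α2(V) and α3(V) chains are encoded by Col5a1, Col5a2 and Col5a3, and α1(XI) by Col11a1, whose chain can mix with type V chains in the same molecule.

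The libraries held 40120843 assigned reads in PRP and 34139741 in control, recovered from the precision of the FPKM values. Genes of the mitochondrial genome took 2.06% of the summed FPKM in PRP and 3.70% in control, and their part in the results below was not tested. Every ratio below is PRP over control FPKM with an exact Clopper-Pearson 95% interval on recovered reads divided by 2, since both mates of a pair may have been counted. The interval covers counting error only and compares 2 libraries, not the treatments, because without replicates the spread between cultures is unknown. Fewer cells making a transcript and less transcript per cell cannot be told apart in such bulk samples.

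Of the 7 fibrillar collagen genes 6 were lower in the PRP library, at ratios between 0.501 and 0.624, and Col5a2 was higher, at 1.12. On the scale log2(PRP FPKM + 1) minus log2(control FPKM + 1), the members had a median of -0.68, against 0.01 over the 13401 genes tested. Lower values in PRP were found for 49.1% of all genes tested. A difference of at least 1.5-fold downward was reached by 5 of the 7 members, against 4.57% of all genes, and upward by none of them, against 6.15%. No member was at least 2-fold lower on this scale, against 0.828% of all genes. Col5a3, at -0.58, lay just inside the 1.5-fold limit because the pseudocount of 1 weighs on low values, and with a pseudocount of 0.1 it counted as the 6th member past that limit.

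**Figure D1:**
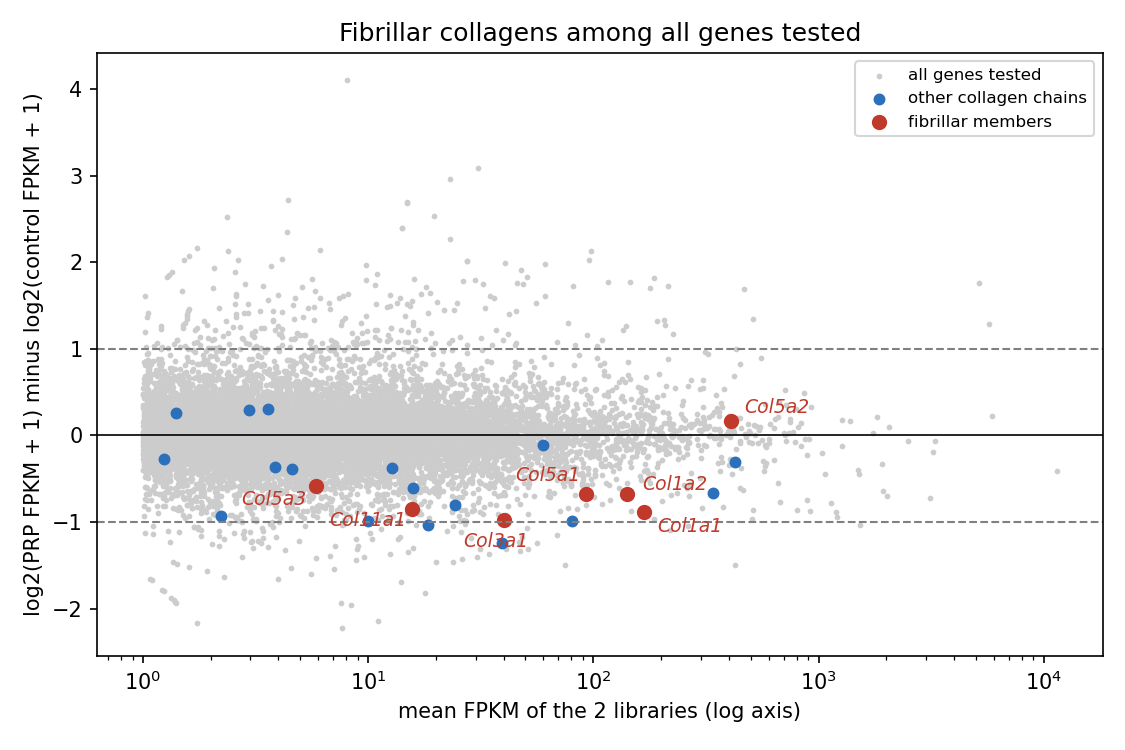
Difference between the libraries (y axis, log2 scale with a pseudocount of 1) against the mean FPKM of both (x axis, log scale) for the 13401 genes tested, with fibrillar collagens in red, other collagen chains in blue and dashed lines at 2-fold. Of the red points 6 lie between -0.58 and -0.97, at mean FPKM from 5.88 to 169, whereas Col5a2 lies at 0.16 and a mean FPKM of 410.

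Together the 7 genes gave 774 FPKM in PRP and 976 in control, a ratio of 0.794. Without Col5a2 the sums were 341 and 589 FPKM, a ratio of 0.579. Col5a2 thus made up 55.9% of the fibrillar collagen FPKM in PRP and 39.6% in control, and the type I pair Col1a1 and Col1a2 made up 29.4% and 40.3%. Of the summed FPKM of all 44 collagen chain genes in the tables, the fibrillar members held 47.5% in PRP and 44.1% in control. The members without Col5a2 held 20.9% of that sum in PRP and 26.6% in control, so the direction turned with this gene.

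The study followed let-7f and miR-16 in its exosomes, so the 3'UTRs of the members were searched for the 7-base matches to their seeds. A microRNA guides a silencing complex to sites that pair with its bases 2 to 8, written in capitals in the mouse RefSeq sequences below (GRCm38.p6). miR-29a was added because collagen genes are its best known targets, and was chosen after the values of the members were known.
mmu-let-7f-5p: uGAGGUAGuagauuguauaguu
mmu-miR-16-5p: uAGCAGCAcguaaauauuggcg
mmu-miR-29a-3p: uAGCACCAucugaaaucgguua

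The let-7 match CTACCTC was present in the principal 3'UTR of 4 of the 7 members, namely Col1a1, Col1a2, Col3a1 and Col5a2, against 8.89% of the 10292 tested genes with a 3'UTR. Among the 4074 genes with a 3'UTR of 785 to 2498 bases, the range of the members, it was present in 9.65%. The sites are shown because 3 of these genes were lower in PRP and the fourth, Col5a2, was higher. Capitals mark the match, and each line is 5' to 3' on the transcript strand from GENCODE M21.
Col1a1, chr11:94952390-94952417: tgtgttgctgaaagaCTACCTCgttctt
Col1a2, chr6:4541062-4541089: ttccaaaggtttgaaCTACCTCaagaca
Col3a1, chr1:45349135-45349162: tcctccctatgttaaCTACCTCaactgg
Col5a2, chr1:45375096-45375123: atttcttagcatgacCTACCTCatctct

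Col5a1, Col5a3 and Col11a1 had no such match in this 3'UTR and were lower in PRP. The part of let-7, miR-16 and miR-29 in the collagen differences was not tested. The miR-16 match TGCTGCT was found in 2 members, Col1a1 and Col5a1, against 22.8% of the tested genes and 25.5% of those in the same length range. Col1a1 held 2 overlapping copies of it and Col5a1 had 1.
Col1a1, chr11:94952825-94952852: gaaaccctcccctctTGCTGCTgctccc
Col5a1, chr2:28039262-28039289: taaaaattgaacaaaTGCTGCTgaaaat

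The miR-29 match TGGTGCT was found in 6 members, all but Col1a2, against 14.2% of the tested genes and 14.4% of those in the same length range. Col5a1 held 4 of these matches, Col5a3 held 3 and Col11a1 held 2. Col5a2, the member that was higher in PRP, held 1, as did Col1a1 and Col3a1. The sites of Col3a1 and Col5a2 are shown as the pair of neighbours with opposite directions.
Col3a1, chr1:45348967-45348994: ttcaaaatgtctcaaTGGTGCTataata
Col5a2, chr1:45374960-45374987: cttttcttttaatgaTGGTGCTaaaatt

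Promoter sequence, from 250 bases before to 50 after the RefSeq start, was at hand for 5 members, Col1a2, Col3a1, Col5a1, Col5a3 and Col11a1, all of which were lower in PRP. The CCAAT box, the site of NF-Y and searched as CCAAT on both strands, was present in 3 of the 5, against 37.4% of 32851 promoters. The GC box, the site of Sp1 family factors and searched as GGGCGG on both strands, was present in 4 of the 5, against 35.7%. A TATAAA element was found in Col3a1 only, at 117 bases before the start, against 13.6% of all promoters. The part of these motifs in the collagen differences was not tested. The lines below show the CCAAT boxes upstream of the start, in capitals and as ATTGG where they lie on the other strand, at 109 bases before the start in Col1a2, 122 in Col5a3 and 79 in Col11a1 (GRCm38.p6).
Col1a2, chr6:4505499-4505523: aagaatggaaCCAATttaagaagcc
Col5a3, chr9:20815175-20815199: tctcagccagCCAATcagcgcgtgg
Col11a1, chr3:114030451-114030475: gaggcctgtgATTGGgtatgacctt

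The type I chains were among the most abundant members. Col1a1 (ENSMUSG00000001506, chromosome 11, 94936224 to 94953042, plus strand, GRCm38) encodes α1(I) and had 118.6 FPKM in PRP and 219 FPKM in control. The PRP library was lower, with a ratio of 0.542 (0.531 to 0.553) from 31223 and 48994 reads. Its position among all genes ordered by FPKM went from 220th in control to 455th in PRP. Col1a2 (ENSMUSG00000029661, chromosome 6, 4504814 to 4541544, plus strand) encodes α2(I), the partner chain, and had 109 FPKM in PRP and 174 in control. Its ratio was 0.624 (0.614 to 0.634) from 54284 and 74024 reads, so the transcripts of both type I chains were lower in PRP. The intervals of the 2 ratios do not overlap, which places Col1a1 further below its control than Col1a2 by more than counting error. The study reported more fibrosis, stained as collagen I protein, in injured mouse muscle given exosomes from young donors. That result is protein in tissue, whereas the values here are RNA of cultured cells, so they are unlike measures.

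The type III gene Col3a1 (ENSMUSG00000026043, chromosome 1, 45311538 to 45349706, plus strand) had 26.9 FPKM in PRP and 53.7 in control. Its ratio of 0.501 (0.484 to 0.518), from 10600 and 18006 reads, was the lowest of the 7. The difference of -0.97 lay at percentile 0.963 of all genes tested. It stayed short of 2-fold on the scale used, but passed it after the libraries were rescaled to a common sum (-1.004). Its exons share 141 bases on the same strand with Gm47302, which was not analysed here.

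The chains of type V differed in direction. Col5a1 (ENSMUSG00000026837, chromosome 2, 27886425 to 28039514, plus strand) encodes α1(V), the chain present in nearly all type V molecules, and had 71.4 FPKM in PRP and 115 in control. Its ratio was 0.623 (0.609 to 0.638) from 24529 and 33486 reads. Of its exon bases, 212 are also covered on the opposite strand by 2810430I11Rik (1.43 and 1.92 FPKM in PRP and control) and Gm13372 (2.35 and 4.47 FPKM). Both of these are low beside Col5a1. Col5a3 (ENSMUSG00000004098, chromosome 9, 20770050 to 20815067, minus strand) encodes α3(V), a chain of more restricted use, and was the lowest member, with 4.51 FPKM in PRP and 7.25 in control. Its ratio of 0.621 (0.560 to 0.691) rested on 1231 and 1686 reads and had the widest interval of the 7, which overlapped those of Col5a1 and Col1a2.

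Col5a2 (ENSMUSG00000026042, chromosome 1, 45374321 to 45503282, minus strand) encodes α2(V), which joins α1(V) in the common type V heterotrimer. It had 433 FPKM in PRP and 386 in control, the highest level of the 7 in both libraries. Its ratio of 1.12 (1.11 to 1.13) came from 166638 and 126501 reads, with the whole interval above 1. The difference of 0.16 lay at percentile 69.9 of all genes tested, whose middle 95% ran from -0.74 to 0.89. By FPKM it was the 90th gene of the PRP library and the 111th of the control library. Col5a2 and Col3a1 are neighbours that point toward each other on chromosome 1, with 24614 bases between their ends, and they held the lowest and the highest ratio of the 7. The ratio of Col3a1 to Col5a2 was 0.139 (0.136 to 0.142) in control and 0.0622 (0.0605 to 0.0639) in PRP.

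Col11a1 (ENSMUSG00000027966, chromosome 3, 114030540 to 114220718, plus strand) encodes α1(XI), known best from cartilage and from activated fibroblasts, and had 10.96 FPKM in PRP and 20.5 in control. Its ratio of 0.534 (0.509 to 0.560), from 5603 and 8936 reads, overlapped that of Col1a1. In the order of ratios, Col3a1 stood below Col11a1 and Col1a1, whose intervals overlap each other, while that of Col3a1 overlaps only the interval of Col11a1. Col5a3, Col5a1 and Col1a2 followed without separation by counting error, the interval of Col5a3 just touching that of Col11a1, and Col5a2 stood apart from the rest.

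**Figure D2:**
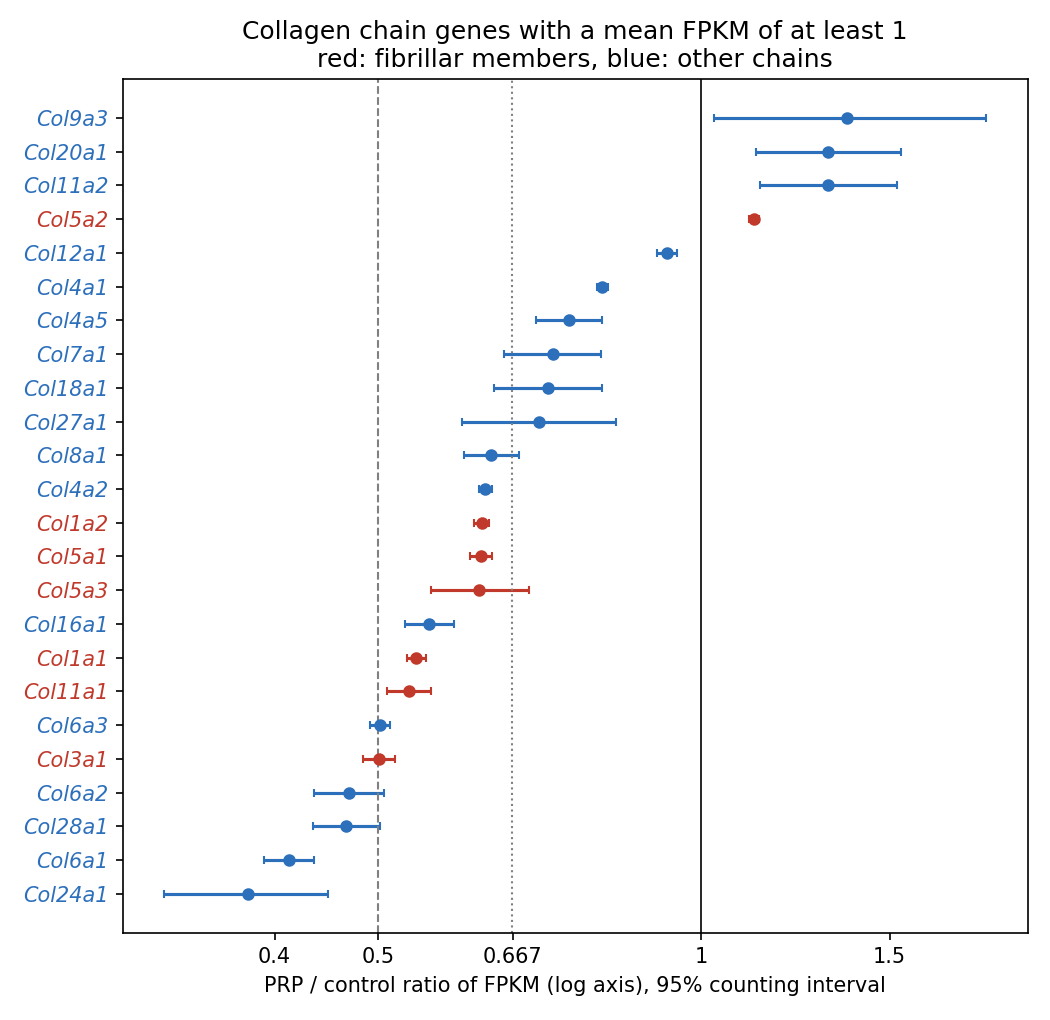
PRP to control ratio of FPKM (x axis, log scale) for the 24 collagen chain genes that passed the filter, with points for ratios, bars for 95% counting intervals, fibrillar members in red and other chains in blue. Of the red points 6 lie between 0.501 and 0.624, and Col5a2 sits at 1.12, above 1 together with Col11a2, Col20a1 and Col9a3.

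Because a triple helix needs chains in fixed proportion, the members were also compared with each other within a library, on values per length. The deposited FPKM divides by all annotated exon bases of a gene, and these include retained introns and partial transcripts. The 12426 exon bases of Col1a2 are 2.32 times its principal mRNA of 5348 bases, whereas the 6563 exon bases of Col1a1 are only 1.11 times its mRNA of 5930 bases. The order of the type I chains depended on this choice. On FPKM, Col1a1 stood above Col1a2, at a ratio of 1.25 (Woolf 95% interval 1.23 to 1.27) in control and 1.09 (1.07 to 1.11) in PRP. Per kilobase of principal mRNA, with all recovered reads assigned to that mRNA, Col1a1 stood below Col1a2, at 0.597 (0.587 to 0.607) in control and 0.519 (0.509 to 0.529) in PRP. On both scales the ratio of Col1a1 to Col1a2 was lower in PRP than in control, since a fixed length cannot change the difference between libraries.

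Col5a2 stayed at the top on both length scales. In recovered reads per kilobase of mRNA, scaled to the assigned reads of the library, it had 627 in PRP and 559 in control, followed by Col1a2 with 253 and 405, Col1a1 with 131 and 242, and Col5a1 with 72.7 and 117. Col3a1 had 47.5 and 94.8 on this scale, Col11a1 18.2 and 34.1, and Col5a3 5.01 and 8.07. Relative to Col1a1 on FPKM, Col5a2 stood at 1.77 (1.74 to 1.79) in control and at 3.65 (3.59 to 3.72) in PRP. The ratio of Col5a1 to Col5a2, the chains of 1 heterotrimer, was 0.297 (0.292 to 0.302) in control and 0.165 (0.162 to 0.168) in PRP. By contrast, Col5a3 to Col5a1 was 0.0633 (0.0591 to 0.0678) in control and 0.0631 (0.0582 to 0.0684) in PRP, with overlapping intervals. Col11a1 to Col1a1 likewise gave overlapping intervals, at 0.0939 (0.0910 to 0.0970) in control and 0.0924 (0.0888 to 0.0962) in PRP.

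**Figure D3:**
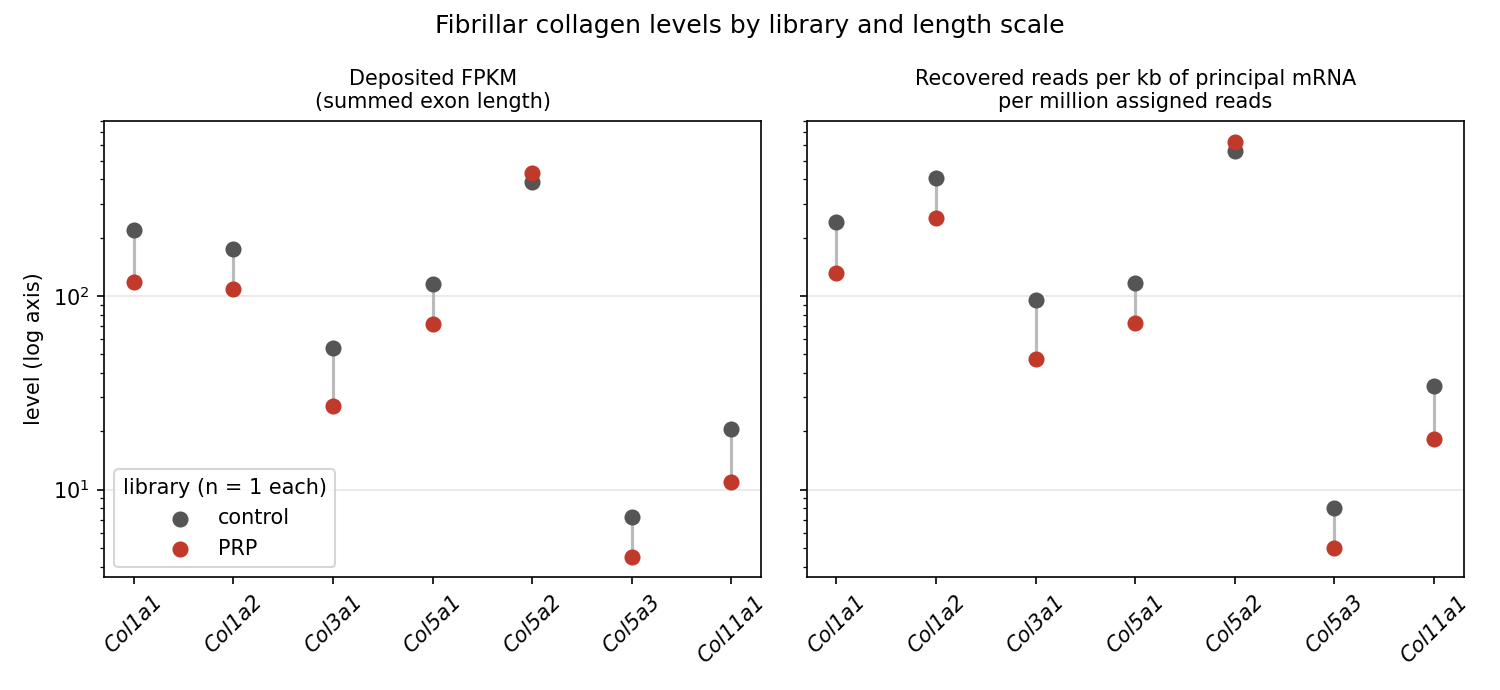
Level of each fibrillar collagen gene in the control (grey) and PRP (red) library, 1 library each, on a log axis, as deposited FPKM (left) and as recovered reads per kilobase of principal mRNA, scaled to assigned reads (right). Col5a2 is highest on both scales and the only gene with the red point on top, while Col1a2 stands below Col1a1 on the left and above it on the right.

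**Figure D4:**
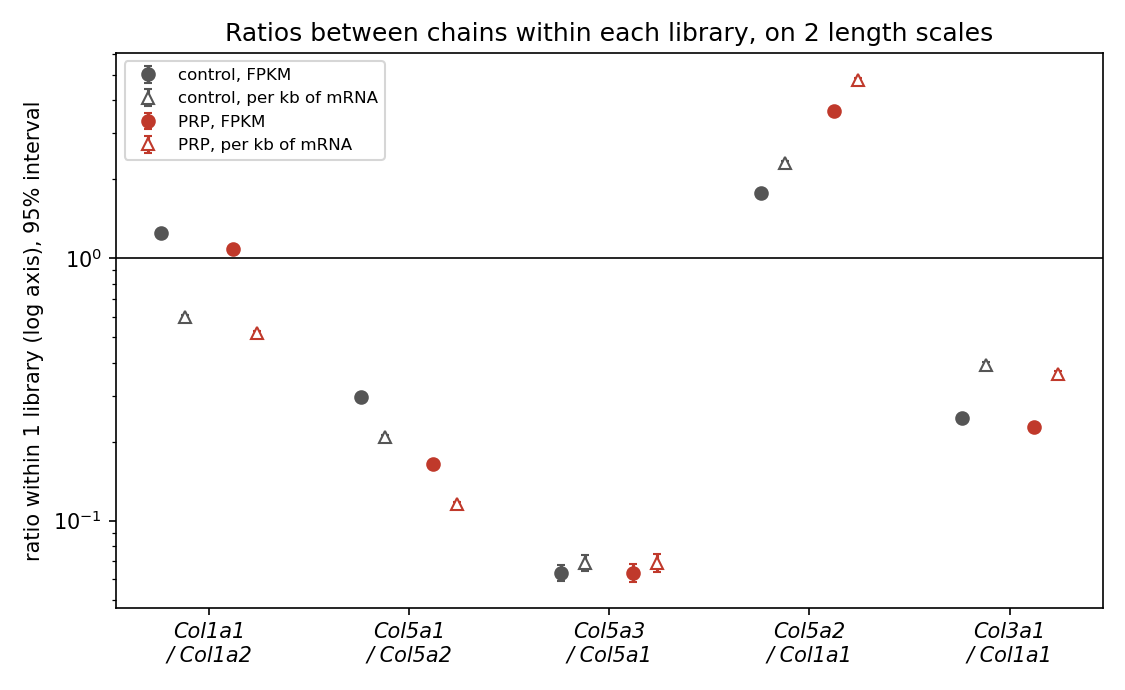
Ratios between chains within each library (y axis, log scale) with Woolf 95% counting intervals, for control in grey and PRP in red, on FPKM (filled circles) and per kilobase of principal mRNA (open triangles). Col1a1 to Col1a2 lies above 1 on FPKM and below 1 per kilobase of mRNA, and Col5a2 to Col1a1 goes from 1.77 in control to 3.65 in PRP.

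The fibrillar collagen genes outside the member set were low. Col24a1, a minor fibrillar chain of bone, had 1.22 FPKM in PRP and 3.23 in control, a ratio of 0.378 (0.315 to 0.449). Col27a1 had 1.03 and 1.45 FPKM (0.706, 0.598 to 0.833), and Col11a2, which encodes α2(XI), had 3.35 and 2.55 FPKM (1.31, 1.13 to 1.53). The cartilage gene Col2a1 had 10 and 4 reads, with an interval from 0.348 to 22.3 that allows no statement on direction at this depth. Of the 33 non-fibrillar collagen genes listed, 14 were tested, with a median of -0.50. Of the 14, 12 were lower in PRP, against 49.1% of all genes, and 2 higher. At least 1.5-fold lower were 7 of the 14, against 4.57% of all genes, and at least 2-fold lower were 2, against 0.828%. The lowest were Col6a1, a chain of the beaded filament collagen VI (23.1 and 55.9 FPKM, ratio 0.413), and Col28a1 (11.8 and 25.2 FPKM, ratio 0.467). The highest were Col20a1 (1.32, 1.13 to 1.54) and Col9a3 (1.37, 1.03 to 1.85).

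The machinery that makes and handles fibrillar collagen was compared next, each list beside the median of 0.01 over all genes and beside their shares, 49.1% lower, 4.57% at least 1.5-fold lower and 6.15% at least 1.5-fold higher. For procollagen folding and secretion, 20 of 24 tested genes were lower in PRP, against 49.1% of all genes, and the median was -0.24. At least 1.5-fold lower was 1 of the 24, a share near the 4.57% of all genes. That gene was Sec23a, a coat protein of the vesicles that carry procollagen out of the endoplasmic reticulum, with 5.93 and 14.9 FPKM (ratio 0.398, 0.360 to 0.440). Next was the collagen prolyl isomerase gene Fkbp14 (0.640, 0.568 to 0.724). At the other end Mia2, of the same export step, had a ratio of 1.06 (1.01 to 1.11) and Creb3l1, a transcription factor for secretory genes, 1.04 with an interval of 0.897 to 1.20 that includes no change. For propeptide cleavage and crosslinking, 7 of 10 genes were lower and 3 higher, with a median of -0.45. At least 1.5-fold lower were 2 of the 10, against 4.57% of all genes, and at least 1.5-fold higher were 2, against 6.15%. Loxl3, a lysyl oxidase that crosslinks collagen, had 17.5 and 35.5 FPKM (0.494, 0.464 to 0.525). Pcolce, the enhancer of C-propeptide removal, had 22.5 and 36.1 FPKM (0.622, 0.585 to 0.663). Tgm2, the tissue transglutaminase, was higher, with 24.8 and 10.9 FPKM (2.27, 2.10 to 2.46), as was the propeptide protease gene Tll1 (2.53, 1.96 to 3.30).

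Proteins of the fibril surface had 9 of 11 tested genes lower, against 49.1% of all genes, with a median of -0.40. At least 1.5-fold lower were 4 of the 11, against 4.57% of all genes. The collagen-binding proteins asporin (Aspn, ratio 0.204, 0.166 to 0.249) and dermatopontin (Dpt, 0.374, 0.341 to 0.411) were the lowest. Tnxb, for which no whole reads were recovered, had 5.44 and 4.86 FPKM, and the microfibril gene Mfap5 had a ratio of 1.09 (0.982 to 1.20). Of the receptors, 4 of 5 tested genes were lower, with a median of -0.46, and 2 were at least 1.5-fold lower, against 4.57% of all genes. The integrin gene Itga11, whose product binds type I collagen, had 4.29 and 13.4 FPKM (0.321, 0.287 to 0.358), and Mrc2, an uptake receptor for collagen, 0.562 (0.539 to 0.587). Ddr1 stood at 1.01 (0.933 to 1.10) and Itgb1 at 0.966 (0.946 to 0.986). Of the genes of collagen breakdown 5 of 9 were lower, a share near the 49.1% of all genes, with a median of -0.14. At least 1.5-fold higher were 2 of the 9, against 6.15% of all genes, and at least 1.5-fold lower were 0, against 4.57%. The gelatinase gene Mmp2 (0.678, 0.654 to 0.703) and the membrane protease gene Mmp14 (0.793, 0.767 to 0.821) were lower, whereas cathepsin K (Ctsk, 178 and 113 FPKM, 1.58, 1.51 to 1.65) and the collagenase gene Mmp13 (1.73, 1.37 to 2.22) were higher.

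Of 21 tested transcription factors with known links to collagen genes, 9 were lower and 12 higher, with a median of 0.03, and none passed 1.5-fold. These counts are near those of all genes, of which 49.1% were lower, 4.57% at least 1.5-fold lower and 6.15% at least 1.5-fold higher. The extremes were Yap1 (0.714, 0.668 to 0.763) and Rfx5 (0.724, 0.620 to 0.843) at the lower end, and Ets1 (1.49, 1.39 to 1.61) and the NF-Y subunit gene Nfyb (1.40, 1.28 to 1.53) at the upper end. TGF-β is a growth factor that acts on matrix genes. Of the 15 tested genes for its ligands, receptors and targets, 5 were lower, against 49.1% of all genes, and 10 higher, with a median of 0.22. At least 1.5-fold higher were 4 of the 15, against 6.15% of all genes, and at least 1.5-fold lower was 1, against 4.57%. The part of TGF-β in the collagen differences was not tested. Acta2, the smooth muscle actin of myofibroblasts, had 570.3 and 286 FPKM (1.99, 1.95 to 2.04). At the lower end stood Tgfbr3, for the co-receptor betaglycan (0.494, 0.457 to 0.534), and Ltbp3 (0.652, 0.610 to 0.697), whose product holds latent TGF-β in the matrix.

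**Figure D5:**
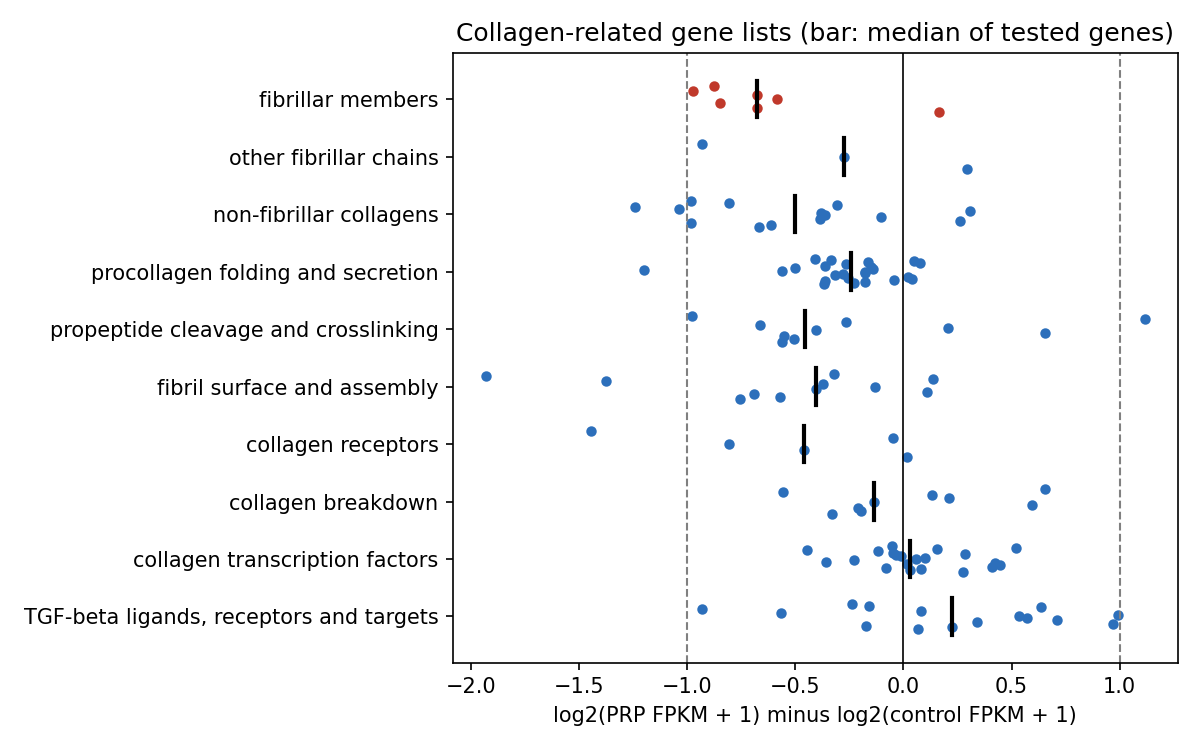
Difference between the libraries (x axis, log2 scale with a pseudocount of 1) of every tested gene in the collagen-related lists, with 1 point per gene, a black bar at the median of each list and dashed lines at 2-fold. The fibrillar members have the lowest median, -0.68, with Col5a2 as the single point above 0, and the TGF-β list has the highest median, 0.22.

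Over the 2 libraries the pattern of a gene is 1 difference, so likeness was measured as distance to the members' median of -0.68 among the 533 genes that averaged 100 FPKM or more. The nearest genes were Col4a2 (-0.67), Selenop (-0.66), Ctla2a (-0.69), Postn (-0.69) and Actg1 (-0.70). Of these, Col4a2 encodes a basement membrane collagen and Postn the matrix protein periostin.

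Markers of the cell types that a FAP culture could hold were read beside these values. Of 10 FAP markers 8 were tested, and all 8 were lower in PRP, against 49.1% of all genes. The 10 had summed FPKM of 196 and 307 in PRP and control, of which Gsn held 79.6 and 139, and Dpt 18.8 and 50.2. Dpt and Dcn also belong to the fibril surface list above. The defining gene Pdgfra had 19.8 and 28.0 FPKM (0.710, 0.680 to 0.740) and Ly6a 59.9 and 66.4 FPKM (0.902, 0.838 to 0.973), while Pi16 had 8 and 13 reads. Adipocyte markers summed to 52.9 and 46.0 FPKM, of which Fabp4 held 40.7 and 33.6 FPKM (1.21, 1.15 to 1.27). Among the 5 tested adipocyte genes 2 were lower, against 49.1% of all genes, and 3 higher. Lipe was lower (0.752, 0.610 to 0.922), and the intervals of Plin1, Adipoq and Cfd include 1. Tenocyte markers summed to 192 and 143 FPKM. Of these, Tnc had 167 and 108 FPKM (1.54, 1.51 to 1.57) and Thbs4 went the other way with 21.3 and 29.8 FPKM (0.715, 0.666 to 0.768), while Scx and Tnmd stayed below 1 FPKM. Smooth muscle and pericyte markers summed to 593 and 303 FPKM, of which Acta2 was the larger part, and Rgs5 was below 0.3 FPKM. Myh11 was also higher (1.69, 1.58 to 1.81), while the intervals of Des and Cspg4 include 1. Myogenic markers summed to 42.8 and 27.0 FPKM, with Pax7 and Myog at 0 in both libraries and Myf5 not analysed here. Tnnc1 (2.43, 2.01 to 2.93) and Acta1 (1.36, 1.17 to 1.57) were higher in PRP, while the intervals of Ckm and Des include 1. Macrophage markers summed to 11.4 and 11.3 FPKM, but the 2 tested genes went opposite ways. Lyz2 was lower in PRP (0.648, 0.514 to 0.822) and Cd68 higher (1.98, 1.39 to 2.79). Endothelial markers summed to 9.59 and 5.46 FPKM. Most of this was Kdr (2.82, 2.43 to 3.28) and Tek (1.33, 1.15 to 1.55), and the other endothelial markers stayed below 0.3 FPKM. Platelet and erythroid markers summed to 1.68 and 1.76 FPKM, with Ppbp and Gp9 at 0 in both. The part of these markers in the collagen differences was not tested.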

How the data were processed

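RNA-seq was performed by the authors on 1 PRP-treated and 1 vehicle-treated culture of mouse FAPs. Per the labels and methods, libraries came from a stranded mRNA kit, and reads were trimmed with fastp 0.23.4, aligned to mm10 with STAR 2.5.3a and counted with featureCounts. The deposited values are FPKM, as the authors computed them; the formula and annotation release are not given in the sources used here. Gene coordinates, exon lengths and 3'UTRs came from GENCODE M21 (GRCm38).

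Multiplying FPKM by exon length gave whole reads, within 0.001, in both libraries for 93.6% of 22777 genes above 0 with an M21 length. Reads of Col5a1 came out whole at 8559 bases in place of the 8490 of M21. To allow for both mates of a pair being counted, intervals used reads divided by 2. These reads served for depth, intervals and ratios per mRNA length, and no count test was run. With 1 library per group there is no replicate error and no p-value.

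Differences were log2(FPKM + 1) of PRP minus control for genes that averaged 1 FPKM or more. The members, the gene lists and the alternatives were chosen with earlier results of these data known, and the searches for miR-29 sites and promoter motifs were added after the files were read. Named genes are the members, the other fibrillar chains, the 2 highest and 2 lowest of each pathway list and the 5 genes nearest to the members' median that averaged 100 FPKM or more; 1 gene that this rule names is not reported here. Alternatives were pseudocounts of 0.1 and 5, no filter or one at 5 FPKM, 3 rescalings, thresholds of 1.5-fold and 4-fold, and mRNA length. Protein sequences were not used here. Python 3.11.15, NumPy 2.4.6, pandas 2.3.3, SciPy 1.17.1 and matplotlib 3.10.9 were used. The procedures were tested on simulated data.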

Additional observations from a re-analysis of the deposited data

How the results depend on the processing

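Of the 7 fibrillar collagens, 6 stayed lower in PRP, and Col5a2 higher, under both pseudocounts and all 3 rescalings. The median of the 7 was -0.66 with a pseudocount of 5 and -0.71 after rescaling without mitochondrial genes and the 50 most abundant genes. The number of members at least 2-fold lower was 0, or 1 (Col3a1) after rescaling to a common sum and likewise 1 without mitochondrial and top genes. The number at least 1.5-fold lower was 5, or 6 with a pseudocount of 0.1 and under each rescaling. Per kilobase of principal mRNA, Col1a1 to Col1a2 turned from above 1 to 0.519 in PRP and 0.597 in control, Col5a1 to Col5a2 was 0.116 and 0.209, and Col5a3 to Col5a1 was 0.0689 and 0.0692. These moves follow from the lengths alone.

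Genes at least 2-fold apart numbered 379 of those tested, and 739 with a pseudocount of 0.1, 113 with one of 5, 210 with the filter at 5 FPKM, 596 when both libraries were set to a common sum, 638 without mitochondrial and top genes, 1436 at 1.5-fold and 26 at 4-fold. Both rescaled sums exceed the deposited ones, so the pseudocount of 1 weighs less there. Without a filter 20 non-fibrillar collagens were lower, and with the filter at 5 FPKM 3 genes of the TGF-β list were, in each case because another number of genes was tested. Rescaling without mitochondrial and top genes left 5 receptor genes lower in place of 4, and 10 transcription factors in place of 9. The other list counts did not change under the rescalings. Across the scalings the all-gene median ranged from -0.02 to 0.01. No paired analysis was possible because the design holds 1 PRP and 1 control library, and leaving out a replicate gives no value for the same reason.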

Other observations

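Among the collagen chains outside the tested set, Col22a1, a chain of muscle-tendon junctions, had 0.693 FPKM in PRP and 0.108 in control, a ratio of 6.41 (3.85 to 11.3), the largest upward ratio of the chains with an FPKM above 0.1 in both libraries. This gene was picked out on seeing its values. The basement membrane partners Col4a1 and Col4a2, which lie side by side and form 1 heterotrimer, had ratios of 0.809 (0.800 to 0.818) and 0.629 (0.620 to 0.638), so partner chains differed beyond counting error there as they did for Col5a1 and Col5a2.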
